A study of Danio rerio with 40 samples.

Results

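The cells described here are 31 of 40 single cells sorted from zebrafish ventricles, set apart by how much tbx18 messenger RNA each one held. They were grouped by measured values. A cell was a member if at least 1000 genes had 5 or more reads and tcf21 had 5 or more reads, and it counted as tbx18-expressing at 50 or more tbx18 reads for each 1000000 reads of the cell (CPM) and as tbx18-low below that. This gave 21 tbx18-expressing and 10 tbx18-low cells, and the other 9 cells of the 40 were no members. Both sides come from 1 labelled group: 6-month-old adults of strain EK that carry the tcf21:nucEGFP reporter, in which regulatory DNA of tcf21 drives a nuclear green fluorescent protein. Ventricles were dissociated with Liberase DH, and cells positive for EGFP and negative for the dead-cell dye propidium iodide were captured singly on the Fluidigm C1, a microfluidic device. No injury, treatment or mutation is given for any cell, so the sides differ by tbx18 alone in their definition.

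The epicardium is the mesothelial sheet that covers the heart. Its cells make matrix and secreted signals for the muscle beneath, and some of them leave the sheet and become fibroblast-like and mural cells around the coronary vessels. tcf21 encodes a basic helix-loop-helix transcription factor and tbx18 a T-box transcription factor that acts mainly as a repressor. Both genes mark the epicardium in fish and mammals, and in mice Tbx18 is also made in the mesenchyme of the sinus horns and in mural cells.

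The labels name no animal, so the cells count as 1 sample and no test is possible between the sides. What follows are values of these libraries, with the spread between cells. "Detected" means 5 or more reads in a cell, and shares of cells have exact Clopper-Pearson intervals at 95% that cover the counting of cells only.

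tbx18 (ENSDARG00000036930) ran from 50.7 to 3325 CPM in tbx18-expressing cells, with a median of 281 CPM, and from 0 to 32.1 CPM in tbx18-low cells, with a median of 0.977 CPM. The levels chose the sides and are no finding. They also ran on without a wide gap at the dividing level. Just inside it lay cell 32 at 50.7 CPM and cell 5 at 54.8 CPM, and just outside it cell 9 at 32.1 CPM and cell 10 at 18.5 CPM. Of the 31 cells, 6 were below 5 CPM, 4 at 5 to 50 CPM, 8 at 50 to 200 CPM and 13 at 200 CPM or more. Of the 10 tbx18-low cells, 4 had at least 5 tbx18 reads, and the highest of these, cell 9, had 77, so this side is low in tbx18 and not without it. TCF21 (ENSDARG00000036869), which had to be detected on both sides, ran from 38.1 to 2013 CPM in tbx18-expressing cells, with a median of 520 CPM. In tbx18-low cells it ran from 37.4 to 1364 CPM, with a median of 197 CPM. The ranges overlapped over most of their width. Across the 31 cells the logged levels of the 2 genes had a Spearman correlation of 0.481, a description of cells that share a sort and a library method.

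**Figure D1:**
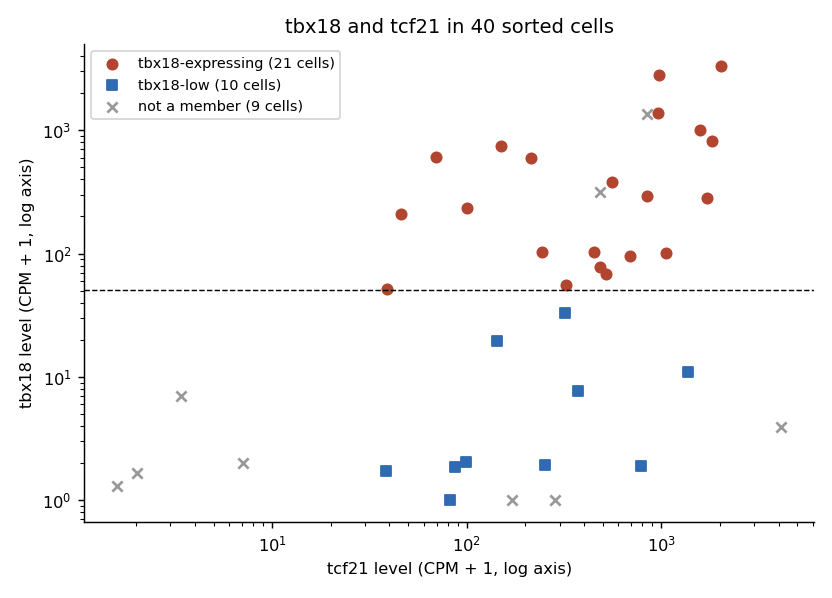
tbx18 level against tcf21 level in the 40 sorted cells, both as CPM + 1 on log axes, with the 21 tbx18-expressing cells in red, the 10 tbx18-low cells in blue and the 9 cells that were no members as grey crosses. The dashed line is the 50 CPM division, and no empty band marks it: the nearest members lie at 50.7 and 32.1 CPM.

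Depth and gene number were alike on the 2 sides apart from cell 40 and, for depth, tbx18-low cell 29. Cell 29 had 1364664 reads, the fewest of the members, with 0.717% of them from ribosomal protein genes. Total reads ranged from 1927207 to 5695770 in tbx18-expressing cells, with a median of 3188589, and from 1364664 to 4347066 in tbx18-low cells. Genes detected ranged from 1493 to 10792 in tbx18-expressing cells, with a median of 2249, and from 1732 to 3056 in tbx18-low cells, with a median of 2331.5. Cell 40, a tbx18-expressing cell, set the upper end alone, and the next highest member, cell 15, had 4119. After each cell was thinned to 1000000 reads, the medians were 1742 genes in tbx18-expressing and 1865.5 in tbx18-low cells. The median share of mitochondrial transcripts was 1.59% in tbx18-expressing and 1.72% in tbx18-low cells, and that of ribosomal protein transcripts 6.14% in tbx18-expressing and 5.30% in tbx18-low cells. Each difference below is adjusted for the logarithm of the number of genes detected, and genes were ranked as higher or lower only if they were so without cell 40 too.

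To ask which genes went with tbx18, the mean of log2(CPM + 1) in tbx18-low cells was subtracted from that in tbx18-expressing cells for 3431 genes, those detected in at least 7 of the 31 cells. An adjusted difference of 2 or more on this scale, about 4-fold in the mean of logged levels, was the mark used. Of these genes, 116 (3.38%) were higher by 2 or more in tbx18-expressing cells and 159 (4.63%) were lower by 2 or more. A stricter reading kept genes that stayed past 2 when each of the 31 cells was left out in turn and when cell 40 was, and whose share of cells and mean CPM pointed the same way. It left 60 higher genes (1.75%) and 61 lower genes (1.78%). With median-of-ratios scaling in place of CPM the counts were 140 higher and 121 lower, and the median difference of the tested genes, -0.14 with CPM, was 0.02. Not 1 of the 3431 genes separated the sides: the count of genes whose ranges did not overlap was 0. The spread between cells was wide, with a median residual SD of 2.48 on the log2 scale. The largest difference relative to that spread was 1.29 residual SDs, for tubb4b, and the smallest was -1.58, for SLC16A3. A difference of 2 is thus smaller than the usual spread between cells of 1 side.

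**Figure D2:**
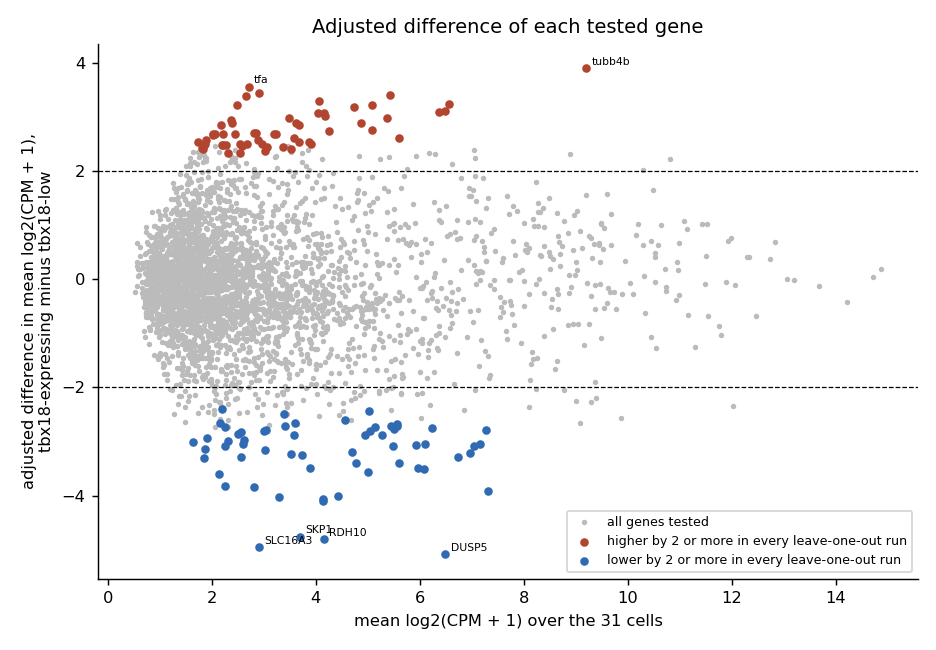
Adjusted difference in mean log2(CPM + 1), tbx18-expressing minus tbx18-low, against the mean log2(CPM + 1) over the 31 cells, for the 3431 genes tested. Coloured points are the 60 genes higher (red) and 61 lower (blue) by 2 or more in each leave-one-out run, the dashed lines mark 2 and -2, and genes at 3.5 or more or at -4.5 or less are named.

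The genes higher in tbx18-expressing cells included tubb4b, VIM and CNN2, which encode cytoskeletal proteins. The keratin krt18a.1 went the other way, with a difference of -3.20. Cytoskeleton genes were not described as a list, so nothing is read for them as a group. tubb4b, a beta-tubulin, was detected in 21 of 21 tbx18-expressing cells (interval 83.9 to 100%) and in 8 of 10 tbx18-low cells (44.4 to 97.5%). Its level ran from 3.87 to 11013 CPM with a median of 2174 CPM in tbx18-expressing cells, and from 0.855 to 2514.5 CPM with a median of 144 CPM in tbx18-low cells. The difference was 3.90, between 3.26 and 4.43 as cells were left out one by one. It was the highest-ranked gene of its direction, and the sides still overlapped: 19 tbx18-expressing cells lay above the tbx18-low median and 1 tbx18-low cell, cell 22, lay above the tbx18-expressing median. VIM (ENSDARG00000010008), the intermediate filament protein vimentin of mesenchymal cells, was detected in 16 of 21 tbx18-expressing and 6 of 10 tbx18-low cells, with medians of 206 and 2.67 CPM and a difference of 2.98. It reached 1802 CPM in tbx18-expressing and 1004 CPM in tbx18-low cells. The VIM median was 0.172 CPM in the 6 cells below 5 CPM of tbx18 and 367 CPM in the 4 cells at 5 to 50 CPM. Among tbx18-expressing cells it was 340 CPM at 50 to 200 CPM of tbx18 and 77.2 CPM at 200 CPM or more. By median, VIM was thus low in the cells below 5 CPM and not in the other tbx18-low cells. CNN2, a calponin that binds actin, was detected in 10 of 21 tbx18-expressing and 2 of 10 tbx18-low cells, at up to 3182 CPM in tbx18-expressing and 264 CPM in tbx18-low cells, with a difference of 3.07. krt8, a keratin of simple epithelia and of the epicardium, had medians of 3265 CPM in tbx18-expressing and 2643 CPM in tbx18-low cells. Its difference of 2.22 rested in part on tbx18-low cells 29 and 12, which had 2.93 and 9.30 CPM, and was 1.42 without cell 29 and 1.57 without cell 12.

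A second group encodes proteins at the cell surface or outside the cell. anxa3b, an annexin that binds membranes and that serves as an epicardial marker in the lists used here, was detected in 13 of 21 tbx18-expressing and 3 of 10 tbx18-low cells. Its level ran from 0 to 4907.5 CPM with a median of 149 CPM in tbx18-expressing cells, and from 0 to 88.0 CPM with a median of 0.23 CPM in tbx18-low cells, and the difference was 3.30. In 11 tbx18-expressing cells it was above the highest tbx18-low cell, and in the others it lay within the tbx18-low range. sdc2, the heparan sulfate proteoglycan syndecan-2, was detected in 12 of 21 tbx18-expressing cells at up to 450 CPM and in 2 of 10 tbx18-low cells at up to 12.6 CPM. CXCL12, the chemokine that draws cells bearing CXCR4, had medians of 203 CPM in tbx18-expressing and 0.733 CPM in tbx18-low cells, and was detected in 15 of 21 and 4 of 10 of them. Its ranges overlapped, with up to 3882 CPM in tbx18-expressing cells and up to 1795 CPM in tbx18-low cell 19. cfd, the serine protease complement factor D, was detected in 17 of 21 tbx18-expressing (58.1 to 94.6%) and 3 of 10 tbx18-low cells (6.67 to 65.2%), with a difference of 3.18. It reached 7216 CPM in tbx18-expressing and 869 CPM in tbx18-low cells. tfa, the iron carrier transferrin, was detected in 7 of 21 tbx18-expressing cells at up to 4649 CPM and in 0 of 10 tbx18-low cells (0 to 30.8%). Its median in tbx18-expressing cells was 0.954 CPM. It met the filter of 7 cells through that side alone, so nothing is read from the 0 of 10. fgfr4, a fibroblast growth factor receptor, was detected in 10 of 21 tbx18-expressing and 3 of 10 tbx18-low cells, with a difference of 2.62. Its highest levels were 3558 CPM in tbx18-expressing and 781 CPM in tbx18-low cells.

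Among regulators of transcription and signalling, NFIX, a nuclear factor I protein, was detected in 14 of 21 tbx18-expressing and 2 of 10 tbx18-low cells, with medians of 59.5 and 1.01 CPM and a difference of 2.99. With tbx18-expressing cells defined at 200 CPM, its difference was -0.17. The 8 cells at 50 to 200 CPM of tbx18 had an NFIX median of 123 CPM and the 13 cells at 200 CPM or more one of 3.14 CPM, so NFIX did not follow the tbx18 level within the expressing side. nfkbiaa, an inhibitor of NF-kappa B that is itself induced by it, was detected in 16 of 21 tbx18-expressing and 5 of 10 tbx18-low cells, with a difference of 3.41 that was -0.04 at the 200 CPM division. It reached 2754 CPM in tbx18-expressing and 1980 CPM in tbx18-low cells. klf2a, a Krüppel-like factor, had medians of 157 CPM in tbx18-expressing and 0.828 CPM in tbx18-low cells and a difference of 3.23. Its highest levels were 7926 CPM in tbx18-expressing and 2515 CPM in tbx18-low cells. PRRX1, a homeobox factor of mesenchyme, was detected in 7 of 21 tbx18-expressing and 1 of 10 tbx18-low cells, and ID2, an inhibitor of basic helix-loop-helix factors, in 8 of 21 and 1 of 10, with differences of 2.68 and 2.69. The medians of PRRX1 and ID2 in tbx18-expressing cells were 0.415 and 0.264 CPM. Both met the filter of 7 cells through tbx18-expressing cells alone, so nothing is read from the 1 of 10. nr1d2a, a nuclear receptor of the circadian clock, was detected in 8 of 21 tbx18-expressing cells and MACROH2A2, a histone variant, in 9 of 21, and both in 0 of 10 tbx18-low cells. Their medians in tbx18-expressing cells were 0.279 and 0 CPM. Both met the filter of 7 cells through tbx18-expressing cells alone, so nothing is read from the 0 of 10. CCNG1, cyclin G1, was detected in 14 of 21 tbx18-expressing and 5 of 10 tbx18-low cells, with a difference of 2.85.

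Other highly ranked genes on this side have varied roles. ROMO1, a small protein of the mitochondrial inner membrane, had medians of 379 CPM in tbx18-expressing and 11.03 CPM in tbx18-low cells and a difference of 3.11. It ran from 0.776 to 1933 CPM in tbx18-expressing cells and from 0 to 1006 CPM in tbx18-low cells, and 2 tbx18-expressing cells exceeded the highest tbx18-low cell. LXN, latexin, an inhibitor of carboxypeptidases, was detected in 20 of 21 tbx18-expressing cells (76.2 to 99.9%) and in 6 of 10 tbx18-low cells (26.2 to 87.8%). Its medians were 396 CPM in tbx18-expressing and 6.61 CPM in tbx18-low cells, and its difference was 3.24. LXN ran from 0.830 to 2646 CPM in tbx18-expressing cells and from 0 to 1317 CPM in tbx18-low cells, and 4 tbx18-expressing cells exceeded the highest tbx18-low cell. AKR1B1, aldose reductase, was detected in 10 of 21 tbx18-expressing cells at up to 2110 CPM, against 1 of 10 tbx18-low cells at 18.7 CPM. The mitochondrial proteins MRPL23 and C1QBP, the splicing cofactor srrm2 and dohh, which modifies the translation factor eIF5A, were detected in 7 or 8 of 21 tbx18-expressing cells and in 0 of 10 tbx18-low cells. Of the 60 higher genes, 12 were detected in no tbx18-low cell, and of the 61 lower genes 0 were detected in no tbx18-expressing cell. These counts are set in part by the gene filter. Detection in 7 cells can be met by 7 of 21 tbx18-expressing cells but needs 7 of 10 tbx18-low cells. The matching shares among all genes tested are not given here. Whether the counts are unusual was therefore not tested, and nothing is read from them.

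**Figure D3:**
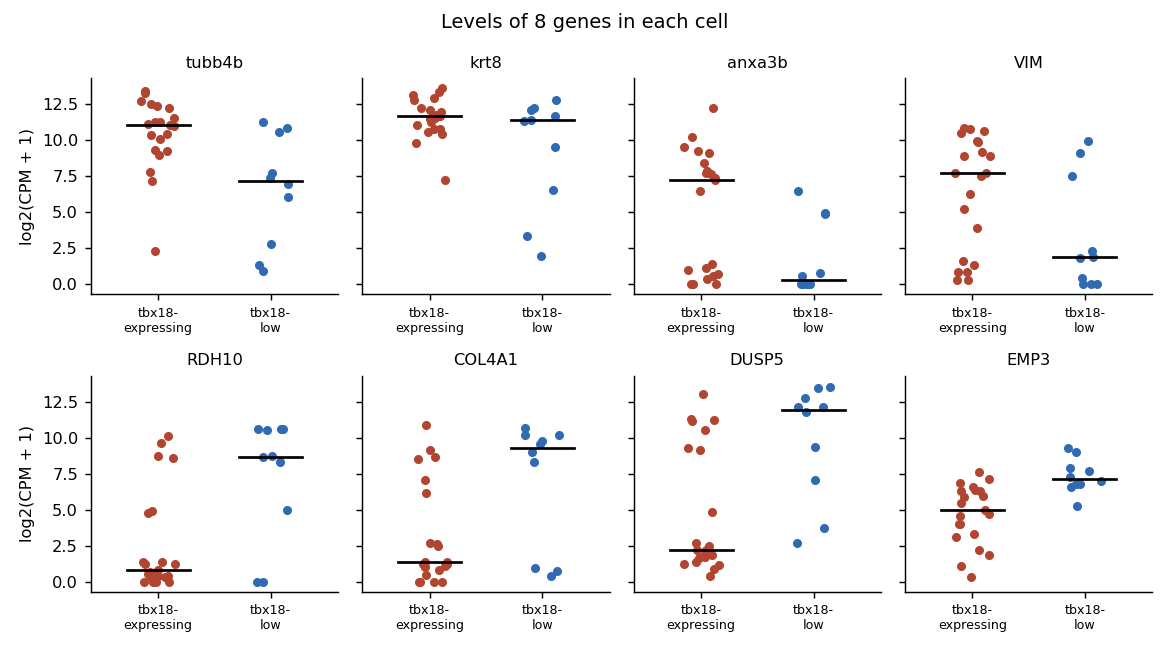
Levels of 8 genes as log2(CPM + 1), 1 point for each cell, with tbx18-expressing cells (red, 21) left of tbx18-low cells (blue, 10) and the median of each side as a bar. In the upper row tubb4b, anxa3b and VIM have their medians higher in tbx18-expressing cells while krt8 medians nearly coincide, and in the lower row RDH10, COL4A1, DUSP5 and EMP3 have theirs lower, with overlapping points in each panel.

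Of the enzymes of retinoid metabolism, 2 differed in opposite directions. RDH10 (ENSDARG00000012369) oxidises retinol to retinaldehyde, the first step toward retinoic acid, a signal that the epicardium makes. It was detected in 6 of 21 tbx18-expressing cells (11.3 to 52.2%) and in 8 of 10 tbx18-low cells (44.4 to 97.5%). Its level ran from 0 to 1099 CPM with a median of 0.805 CPM in tbx18-expressing cells, and from 0 to 1586 CPM with a median of 416 CPM in tbx18-low cells, a difference of -4.81. It was at 50 CPM or more in 4 tbx18-expressing and 7 tbx18-low cells. With 1 read counted as detection, its share was 0.95 percentage points higher in tbx18-expressing cells, so the sides differed in its level and not in the presence of any read. DHRS3, which reduces retinaldehyde back to retinol, differed the other way, by 2.88. It was detected in 11 of 21 tbx18-expressing and 3 of 10 tbx18-low cells, with medians of 14.96 and 0 CPM. Its ranges overlapped, with up to 2638 CPM in tbx18-expressing cells and 1871 CPM in tbx18-low cell 35, which 1 tbx18-expressing cell exceeded. ALDH1A2, which makes retinoic acid from retinaldehyde, was detected in too few cells to be tested, 4 of 21 tbx18-expressing cells at up to 3940 CPM and 2 of 10 tbx18-low cells at up to 3.22 CPM. Of the 25 retinoid genes measured, 4 were tested, with 1 higher, 1 lower and a median of -0.01 (0.07 with median-of-ratios scaling), against -0.14 for the tested genes as a whole.

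The genes lower in tbx18-expressing cells included 2 collagens of basement membranes. COL4A1, a chain of the type IV collagen network, ran from 0 to 1879 CPM with a median of 1.56 CPM in tbx18-expressing cells, and from 0.329 to 1671 CPM with a median of 644 CPM in tbx18-low cells, a difference of -4.00. In 7 of the 10 tbx18-low cells it was above the tbx18-expressing median, and tbx18-expressing cell 26 alone exceeded the highest tbx18-low cell. col18a1a, the collagen whose fragment is endostatin, was detected in 3 of 21 tbx18-expressing and 5 of 10 tbx18-low cells, with a difference of -2.73. Of 23 tested collagens and fibrous matrix genes, 0 were higher by 2 and 4 were lower, namely COL4A1, COL5A2, col18a1a and lamc1. That is 17.4%, against 4.63% of the tested genes, though COL5A2 and lamc1 did not stay past 2 in each leave-one-out run. The list median of -0.26 lay close to that of the tested genes, and with median-of-ratios scaling it was 0.05. No direction is thus given for the list. The 8 tested fibroblast markers had 0 members past 2 in either direction, and a median of -0.17 that was 0.10 with that scaling.

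Also lower were several genes that encode signalling proteins and transcription factors. DUSP5, a phosphatase that inactivates the kinase ERK, ran from 0.323 to 8611 CPM with a median of 3.76 CPM in tbx18-expressing cells, and from 5.48 to 11874 CPM with a median of 4006 CPM in tbx18-low cells. Its difference of -5.09 was the lowest among the named genes. All 10 tbx18-low cells were above the tbx18-expressing median, and 1 tbx18-expressing cell, cell 30, was above the tbx18-low median. NR4A1, an orphan nuclear receptor of the immediate early response, was detected in 17 of 21 tbx18-expressing and 9 of 10 tbx18-low cells, with medians of 23.9 and 1606 CPM and a difference of -3.48. ETS1, a transcription factor of mesenchyme and endothelium, was detected in 4 of 21 tbx18-expressing cells at up to 131 CPM. It was detected in 6 of 10 tbx18-low cells, at 1551.5 CPM in cell 29 and at up to 195 CPM in the others.

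Of 43 tested immediate early genes, 2 were higher (klf2a and nfkbiaa), or 4.65% against 3.38% of the tested genes. The 5 that were lower, or 11.6% against 4.63%, were FOSL2, NR4A1, NR4A3, DUSP5 and CEBPD. Of these lower genes, only NR4A1 and DUSP5 met the stricter reading, past 2 in each leave-one-out run. The median of the list was -0.05 and was 0.24 with median-of-ratios scaling. These genes together took 10.1% of reads in the median tbx18-expressing cell and 9.72% in the median tbx18-low cell. Of 20 tested heat shock genes, 0 were higher and 3 lower (hsp70.1, HSPA9 and HSF2), or 15% against 4.63% of the tested genes. Of these lower genes, only HSPA9 met the stricter reading. The list took 7.71% of reads in the median tbx18-expressing cell and 7.70% in the median tbx18-low cell. Reads of the near-identical hsp70 copies are divided by an estimate, so hsp70.1 on its own is uncertain. HSPA9, the mitochondrial member of the HSP70 family, was detected in 7 of 21 tbx18-expressing and 6 of 10 tbx18-low cells, with a difference of -2.87.

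Transport, metabolism and turnover genes completed the lower group. SLC16A3, a monocarboxylate transporter that exports lactate, was detected in 6 of 21 tbx18-expressing cells at up to 263 CPM and in 8 of 10 tbx18-low cells at up to 4348 CPM. Its medians were 0 and 360 CPM and its difference was -4.96, and 6 tbx18-low cells were above the highest tbx18-expressing cell. PDK2, a kinase that restrains pyruvate dehydrogenase, was detected in 5 of 21 tbx18-expressing and 5 of 10 tbx18-low cells, at up to 257 CPM in tbx18-expressing and 1404 CPM in tbx18-low cells. SKP1, a core subunit of SCF ubiquitin ligases, had medians of 0.339 CPM in tbx18-expressing and 277 CPM in tbx18-low cells and a difference of -4.76. Its highest levels were 1168 CPM in tbx18-expressing and 952 CPM in tbx18-low cells, and 2 tbx18-expressing cells exceeded the highest tbx18-low cell. EMP3, a tetraspan membrane protein, was the gene on this side with the narrowest spread of those named. Its level ran from 0.276 to 202 CPM with a median of 30.5 CPM in tbx18-expressing cells, and from 37.6 to 634 CPM with a median of 142 CPM in tbx18-low cells. Its residual SD was 1.87 and its difference -2.67, and all 10 tbx18-low cells were above the tbx18-expressing median. B4GALT5, a galactosyltransferase of glycolipid synthesis, ramp2, which escorts the receptor for adrenomedullin, and TENT4B, a poly(A) polymerase, had differences of -4.09, -3.82 and -3.31. TXNDC9, a thioredoxin-like protein, and pkd1a, a zebrafish polycystin-1 gene, had differences of -3.02 and -3.14. si:ch73-362m14.2, for which no role is given, was detected in 18 of 21 tbx18-expressing and 10 of 10 tbx18-low cells, with a difference of -2.43.

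**Figure D4:**
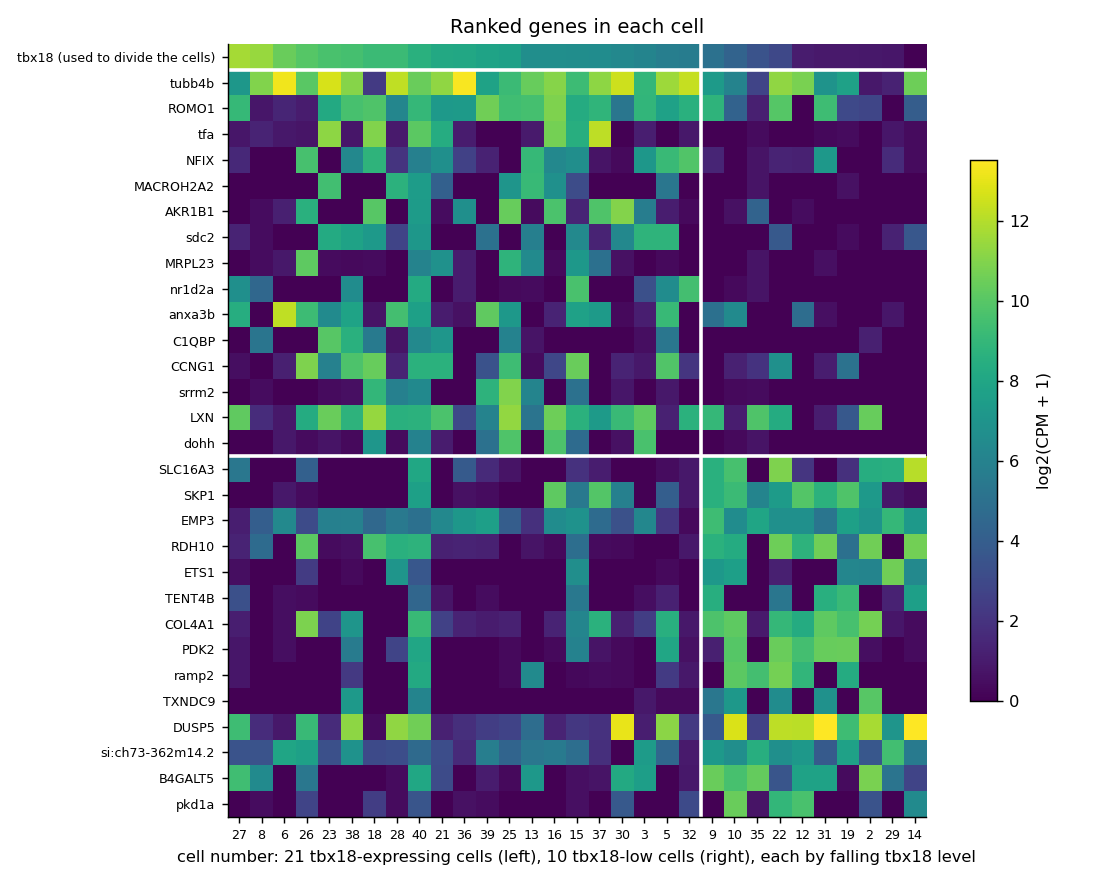
Level of tbx18, of the 15 top-ranked higher genes and of 14 of the 15 top-ranked lower genes, as log2(CPM + 1) by colour, in the 21 tbx18-expressing cells (left) and the 10 tbx18-low cells (right), each ordered by falling tbx18. For most genes, cells with high and with near-0 levels stand side by side within each side, and cell 40 has each of the genes shown detected.

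The genes varied from cell to cell within each side. Of the 15 top-ranked higher genes, a median of 8 were detected per tbx18-expressing cell, from 2 to 15, and a median of 4 per tbx18-low cell, from 0 to 6. Of the 15 top-ranked lower genes, a median of 5 were detected per tbx18-expressing cell, from 3 to 15, and a median of 12 per tbx18-low cell, from 7 to 14. Cell 40 held all 15 of both and had the most genes detected. The genes were chosen on these cells, so the counts describe them and support nothing further.

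Levels of the ranked genes were also set out by tbx18 level. These genes were ranked on their difference at 50 CPM of tbx18, so a step there is fixed by their choice, and what the choice leaves free is the order within each side. RDH10 had a median of 995 CPM in the 6 cells below 5 CPM of tbx18, 362 CPM in the 4 cells at 5 to 50 CPM, 0.289 CPM in the 8 cells at 50 to 200 CPM and 1.56 CPM in the 13 cells at 200 CPM or more. For SLC16A3 the medians in the same order were 174, 576, 0.179 and 0 CPM, and for DUSP5 they were 4006, 2307, 3.71 and 4.55 CPM. EMP3 had medians of 142, 177, 17.3 and 43.8 CPM. SKP1 had medians of 289, 277, 29.65 and 0 CPM, and was detected in 5 of 8 cells at 50 to 200 CPM and in 1 of 13 at 200 CPM or more. Among higher genes, tubb4b had medians of 166, 116, 2292 and 1988 CPM, and LXN of 0.575, 420, 394 and 409 CPM, so LXN was already at its full median in the 4 cells at 5 to 50 CPM. anxa3b was high at the top level, with medians of 0.23, 15.2, 1.41 and 204 CPM. Other higher genes fell or rose between the 2 upper levels. From 50 to 200 CPM of tbx18 to 200 CPM or more, the sdc2 median went from 67.6 to 1.59 CPM. That of AKR1B1 went from 26.95 to 0.388 CPM. The CCNG1 median went from 2.40 to 61.7 CPM and the C1QBP median from 0 to 37.7 CPM. No common order within the tbx18-expressing side is thus read for the higher genes.

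Most of the other epicardial markers that could be tested differed by less than 2. Besides tcf21 and tbx18, 17 were measured and 9 tested, with krt8 and anxa3b higher, krt18a.1 lower and a median of -0.15 that was 0.12 without cell 40. krt18a.1, the partner keratin of krt8, was detected in 10 of 21 tbx18-expressing and 8 of 10 tbx18-low cells, with medians of 0.625 and 165 CPM and a difference of -3.20. krt8 itself did not stay past 2 in each leave-one-out run. BNC2, a zinc finger protein of mesothelium, was detected in 5 of 21 tbx18-expressing and 5 of 10 tbx18-low cells, with a difference of -0.45. GATA5 had a difference of 1.57 and was detected in 7 of 21 tbx18-expressing and 2 of 10 tbx18-low cells, and HAND2, another heart transcription factor, one of 0.74 with 6 of 21 and 1 of 10. The transmembrane protein gene tmem88b, the claudin CLDN11 (ENSDARG00000030723) and the cadherin CDH2 had differences of -0.35, -0.15 and -0.39. The wt1 copies, which encode the Wilms tumour factor often used to mark the epicardium, were detected in few cells. WT1 was found in 2 of 21 tbx18-expressing cells at up to 12.8 CPM and in 2 of 10 tbx18-low cells at up to 1024 CPM. For wt1b the shares were 4 of 21, at up to 519 CPM, and 2 of 10, at up to 112 CPM. podxl was detected in 5 of 21 tbx18-expressing cells at up to 2465 CPM and in 1 of 10 tbx18-low cells at up to 3.72 CPM. For jam2b it was 3 of 21, at up to 1299 CPM, and 0 of 10, at up to 0.573 CPM. The other CLDN11 copy (ENSDARG00000020031) was detected in 2 of 21, at up to 157 CPM, and 0 of 10. SEMA3D was detected in 3 of 21, at up to 1525 CPM, and 2 of 10, at up to 2173 CPM. These genes were in too few cells to be tested. upk3b was detected in none of the 31 cells.

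No other T-box factor was detected in more than 3 cells of either side. Besides tbx18, 14 were measured and none was detected in the 7 cells needed for testing. A TBX2 copy (ENSDARG00000006120) was detected in 3 of 21 tbx18-expressing cells at up to 313 CPM and in 2 of 10 tbx18-low cells at up to 2495 CPM, and the other (ENSDARG00000018025) in 3 of 21 and 3 of 10. TBX20, a heart muscle factor, was found in 2 of 21 tbx18-expressing and 1 of 10 tbx18-low cells, and TBX5 in 1 of 21 and 0 of 10. Of 38 other regulators that work with or near tbx18 in development, 11 were tested, with klf2a higher, ETS1 lower and a median of 0.32. EYA4, a transcriptional coactivator, differed by -0.66, the homeobox factor MEIS1 by 1.30, the Groucho corepressor TLE3 by 0.93 and the Hippo pathway genes YAP1 and tead1a by -0.66 and 0.34. MEF2A, MEF2C, KLF4 and KLF6 had differences of 0.48, -0.17, 0.32 and -0.57.

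**Figure D5:**
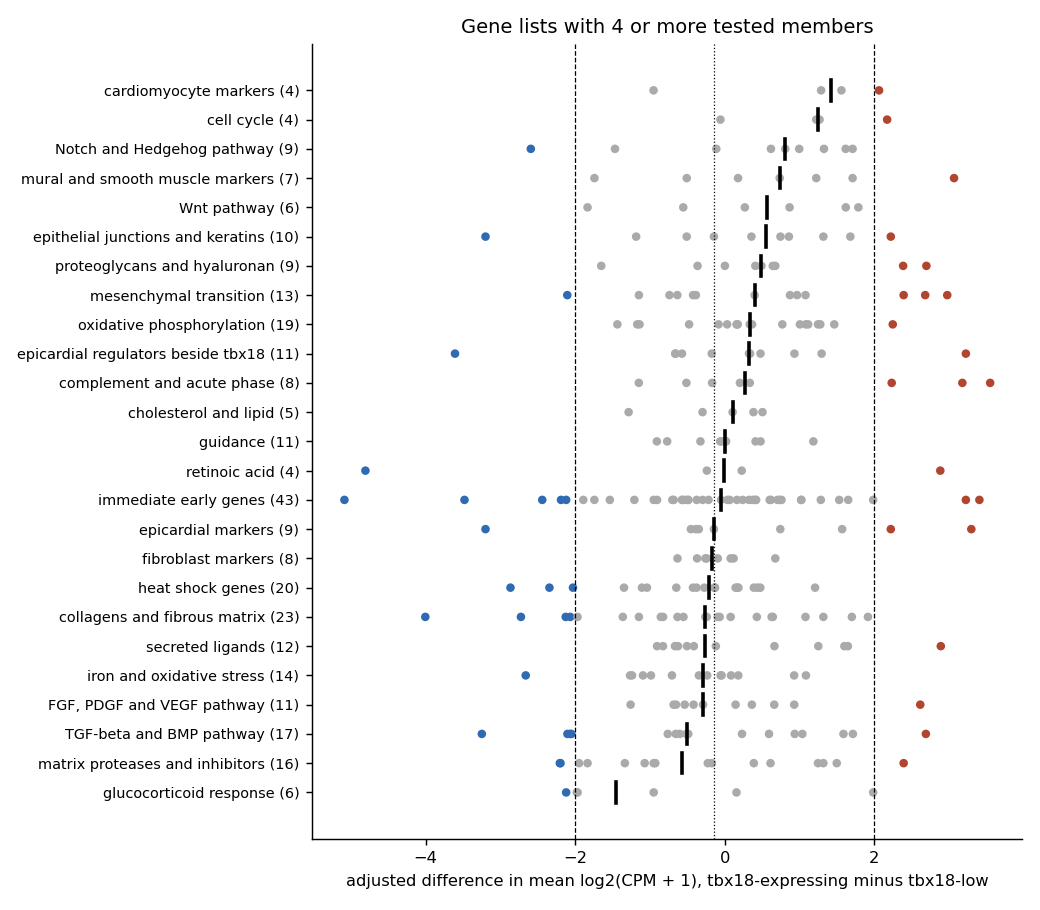
Adjusted difference in mean log2(CPM + 1), tbx18-expressing minus tbx18-low, for each tested gene of the lists described here that have 4 or more tested members, whose number is in brackets. Vertical bars are list medians, dashed lines mark 2 and -2 and the dotted line the median of the tested genes (-0.14). Members lie on both sides of it in the lists shown, except the 4 cell cycle genes, which lie above it.

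Over the 3431 tested genes, 3.38% were higher by 2 and 4.63% lower. Apart from the ribosomal protein genes, the lists below have few tested members, so that 1 gene moves a share by several points. Nothing particular to a list is read from its counts or median. Among the genes named below as past 2, only some met the stricter reading, past 2 in each leave-one-out run. They were ID2, FSTL3, PRRX1, VIM, krt18a.1, sdc2, cfd, tfa, fgfr4 and CXCL12. Of 17 tested genes of the TGF-beta and BMP pathway, ID2 was higher and ID3, FSTL1, FSTL3 and TGIF1 were lower (23.5%), with a median of -0.51. FSTL3, which binds activin outside the cell, was detected in 5 of 21 tbx18-expressing and 7 of 10 tbx18-low cells, with a difference of -3.25. Of 13 genes of the mesenchymal transition, PRRX1, VIM and MMP2 were higher (23.1%) and ITGB1 lower, with a median of 0.40 that was -0.395 without cell 29. PRRX1 here and ID2 above met the filter of 7 cells through tbx18-expressing cells alone. Of 10 junction and keratin genes, krt8 was higher and krt18a.1 lower, with a median of 0.55. Of 16 matrix proteases and inhibitors, MMP2 was higher, and CTSK and an MMP14 copy (ENSDARG00000008388) were lower. The other MMP14 copy (ENSDARG00000002235) had a difference of -0.93. PRELP and sdc2 were higher among 9 proteoglycan genes (22.2%). Of 8 complement and acute phase genes, cfd, CLU and tfa were higher (37.5%) and 0 lower, with a median of 0.27. Of these, tfa met the filter of 7 cells through tbx18-expressing cells alone, and CLU was not past 2 in every leave-one-out run. Of 11 genes of the FGF, PDGF and VEGF pathways 1 was higher, fgfr4, and of 12 secreted ligands 1, CXCL12. Of 9 Notch and Hedgehog genes, 1 was lower, BOC. The 6 Wnt genes and the 11 guidance genes had none past 2 in either direction. The 3 tested caveola genes had none past 2, with a median of 0.96 that was -0.54 at the 200 CPM division. Of 19 oxidative phosphorylation genes NDUFB7 was higher, of 14 iron and oxidative stress genes SQSTM1 was lower, of 6 glucocorticoid response genes CEBPD was lower and of 4 cell cycle genes PCNA was higher. The 5 cholesterol genes had none past 2. Of 70 tested ribosomal protein genes, 53 (75.7%) had a difference above 0, against 1482 (43.2%) of the tested genes, with 1 higher by 2, 0 lower and a median of 0.53. Their share of reads was 0.717% in tbx18-low cell 29 and 1.09% in tbx18-low cell 12, below the lowest tbx18-expressing cell at 1.70%. Their values with median-of-ratios scaling are not given here, so no direction is read for them.

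Markers of fibroblasts and of mural cells were found on both sides, and markers of most other cell types were near 0 in most cells. Of 14 fibroblast markers a median of 7 were detected per cell on each side. Their median share of reads was 1.15% in tbx18-expressing and 1.26% in tbx18-low cells. Of 21 cardiomyocyte markers a median of 3 were detected per tbx18-expressing and 2 per tbx18-low cell. Their summed share ran from 2.65e-05% to 1.62% of reads in tbx18-expressing cells, with the top in cell 18, and from 0 to 0.0399% in tbx18-low cells, and myh6, TNNI1, RYR2 and both SMYD1 copies were at 0 in the 31 cells. actc1a, a cardiac actin, had a difference of 2.06, reached 5259 CPM in tbx18-expressing and 3.22 CPM in tbx18-low cells, and was not past 2 in every leave-one-out run. Mural and smooth muscle markers, 21 in number, took 0.000642 to 1.18% of reads in tbx18-expressing cells and 0.0285 to 1.15% in tbx18-low cells. Their median share was 0.346% in tbx18-expressing and 0.198% in tbx18-low cells. A median of 4 of the 21 were detected per tbx18-expressing cell and 3 per tbx18-low cell. A TAGLN copy (ENSDARG00000033466) was detected in 20 of 21 tbx18-expressing and 9 of 10 tbx18-low cells, with medians of 1201 and 1011 CPM and a difference of 1.22. The other copy (ENSDARG00000045408) was detected in 5 of 21 and 5 of 10, with a difference of -1.74. NOTCH3 was detected in 7 of 21 tbx18-expressing cells at up to 3363 CPM and in 0 of 10 tbx18-low cells, with a difference of 1.71. Its median in tbx18-expressing cells was 0.529 CPM, and it met the filter of 7 cells through that side alone. A MYL9 copy (ENSDARG00000008030) was detected in 15 of 21 tbx18-expressing and 7 of 10 tbx18-low cells, with medians of 124 and 120 CPM. rgs5b reached 2430 CPM in tbx18-expressing and 10613 CPM in tbx18-low cells. CNN2 was higher by 2 among the 7 tested, their median was 0.74, and CNN1, mcama and LMOD1 were at 0 in the 31 cells. The part of mural cells in the result was not tested. Of 18 endothelial markers KDR, cdh5, TIE1, tek, CLDN5, plvapb, vwf, stab2 and lyve1b were at 0 in the 31 cells, and the list reached 0.162% of reads in tbx18-expressing cell 26 and 0.0441% in tbx18-low cell 35. Of 22 macrophage markers, both MPEG1 copies, csf1rb and MFAP4 were at 0. Cell 40 had 14 of the 22 detected and 0.122% of its reads in them, and no tbx18-low cell had more than 1. Cell 40, with 10792 genes detected, also had the most markers detected in other lists. It had 14 of 21 cardiomyocyte, 13 of 21 mural, 6 of 18 endothelial, 3 of 7 neutrophil and 5 of 18 neural and glial markers. Of the lymphocyte markers no member had more than 1. Neutrophil and lymphocyte markers reached 0.00372% and 0.0656% of reads in tbx18-expressing cells and 0 and 0.0235% in tbx18-low cells. Erythrocyte and thrombocyte markers without the FN1 copies, of which 1 (ENSDARG00000006526) had medians of 4545 CPM in tbx18-expressing and 3546 CPM in tbx18-low cells, reached 0.0155% in tbx18-expressing and 0.0518% in tbx18-low cells, and neural and glial markers 0.0834% and 0.112%. Without cell 18, 123 genes were higher and 169 lower by 2, of 3919 tested. Without cell 40 the counts were 134 and 166, of 3493 tested, and without tbx18-low cell 29 they were 117 and 214, of 3946 tested.

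The division itself set part of the result. With tbx18-expressing cells taken at 200 CPM or more, 64 genes were higher and 122 lower, and 11 of the 30 top-ranked genes stayed past 2. With them taken at 5 tbx18 reads, 216 were higher and 208 lower, and 19 of the 30 stayed past 2.

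The 9 cells that were no members were not averaged. Of these, cell 4 had 1345 CPM of tbx18 and 808 genes detected, with tubb4b at 0.727 CPM, DUSP5 at 5.8 CPM and RDH10 at 18.2 CPM. Cell 17 had 317 CPM of tbx18 and 889 genes, with ROMO1 at 1076 CPM. Cell 24 had 0 CPM of tbx18 and 898 genes, with DUSP5 at 6498 CPM and COL4A1 at 161 CPM, but also with sdc2 at 1497 CPM and tfa at 801 CPM. Mitochondrial transcripts took 37.1% of the reads of cell 24, 23.6% of cell 17 and 4.36% of cell 4. The member medians were 1.59% in tbx18-expressing and 1.72% in tbx18-low cells, and the highest member had 9.95%. Cell 24 had 777857 reads and cell 17 had 722997. Of the 15 top-ranked genes of each direction, cell 24 had 3 higher and 6 lower ones detected. The genes named for these cells are a few chosen ones, so nothing is read from them.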

How the data were processed

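Transcripts were measured in 40 single cells of 1 labelled group, and 31 were compared. The deposited values are expected counts per gene, which estimate how many reads a gene received and can be fractional. The submitters' processing notes name Bowtie2, RSEM 1.2.12 and the build Zv9, without saying which step each served. Such estimates split reads between near-identical copies, so close paralogs are uncertain singly. No molecular identifiers are named, so reads are not independent molecules.

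From these counts, used unrounded, CPM was computed over all 33737 genes of a cell with no count model. Differences in mean log2(CPM + 1), with a pseudocount of 1, came from least squares with log10 of genes detected (at 5 reads) as covariate, for genes detected in at least 20% of the cells, tbx18 and tcf21 left out. Cells are not replicates, since no animal is named, so no p-value or standard error is given. The filter of 7 cells can be met by either side alone. No doublet caller was run on so few cells. Thinning to 1000000 reads used a fixed seed. The steps were run on simulated cells with known differences. Those cells were drawn around pooled means, without the near-0 and high levels seen side by side in the real cells. The run thus checks the calculation and not the results given here. Python 3.11.15, numpy 2.4.6, pandas 2.3.3, scipy 1.17.1 and matplotlib 3.10.9 were used.

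Of the genes, 21939 had a symbol in the supplied name table, in capitals for many, and 896 of 1072 list symbols were found, ignoring case and copy letters. A symbol can stand for several copies. cav1 was not analysed here. Named genes are the 15 with a symbol, neither ribosomal nor mitochondrial, of highest and of lowest difference relative to residual SD among those past 2 in each leave-one-out run, the list members that pass the same, and the epicardial markers and regulators at any value. Cells in the text outside this rule, and list members past 2 that did not pass each run (COL5A2, lamc1, FOSL2, actc1a and the like), were named after their values were seen. 1 ranked lower gene, and the list it belongs to, are not reported here. The members and lists were chosen with earlier results of these data known. A planned look at promoter sequences was not done, and no sequence is used here. Alternatives were the tbx18 division, gene and cell filters, covariates, pseudocount, scaling, thinning, thresholds and each cell left out.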

Additional observations from a re-analysis of the deposited data

Results flagged for a closer look

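tbx18 reads were also present in cells that took no part in the comparison. Those with more than 3 tbx18 reads are named here, and this mark does not show whether a few reads are real. Cell 4 had 1851 tbx18 reads and cell 17 had 229, and both lay under the 1000 genes asked of a member. Cell 7 had 5 tbx18 reads and 2 tcf21 reads, and cardiomyocyte markers took 26.5% of its reads. No value is drawn from these cells for either side.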

How the results depend on the processing

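Of 3 named results that changed sign, NFIX (-0.17) and nfkbiaa (-0.043) did so with tbx18-expressing cells taken at 200 CPM, and RDH10 did so in its share of cells when 1 read counted as detected, by 0.95 percentage points; the cause was not tested. The counts of genes higher and lower by 2, 116 and 159, depended on the settings as follows. Cells with at least 2000 genes gave 198 higher, of 4360 genes tested against 3431. With 3431 tested, tbx18 at 5 reads gave 216 higher and tbx18 at 200 CPM 64 higher. The lower counts of these settings, 225, 208 and 122, stayed within 1.5 times. A pseudocount of 10 gave 14 and 42, and genes in 50% of cells gave 40 and 79, by testing fewer genes. A mark of 1 gave 468 and 570 and a mark of 3 gave 15 and 36. A setting chosen after seeing the data, tbx18-low cells below 5 CPM alone (6 cells), gave 236 and 250. Other runs outside the plan left out cell 18, cell 29, cells 15 and 25, or cells 15, 25 and 40. Without cells 15 and 25 the counts were 122 and 157, of 3668 tested. Without cells 15, 25 and 40 they were 130 and 148, of 3193 tested. Leaving out each cell gave 116 to 144 higher and 158 to 220 lower, with a median difference from -0.146 to -0.039. The 20% filter was applied anew in each run, so these counts also move with the number of genes tested. That number was 3493 without cell 40, 3919 without cell 18 and 3946 without cell 29, against 3431. Without cell 40, 112 of the 116 higher and 143 of the 159 lower genes remained. The 30 ranked genes had to stay past 2 in that run to be ranked, so their doing so is no result. All 30 also stayed past 2 with no covariate, with total reads added, with median-of-ratios scaling and after thinning. These settings used the same cells on which the genes were chosen. With a pseudocount of 10 CPM, 19 of the 30 stayed past 2. With cells of at least 2000 or 500 genes, 28 and 29 did. With tbx18-low cells below 5 CPM alone, 29 were tested and past 2. Without cells 15 and 25, 27 were tested and past 2, and without cells 15, 25 and 40, 26 were. No paired analysis was possible because all cells belong to 1 group. Each member had over 1000000 reads, but depth still bore on detection. After thinning to 1000000 reads, 2668 genes were tested in place of 3431, with 121 higher and 150 lower by 2. The number of cells, 10 on the tbx18-low side, limits shares.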
